A study of Oryctolagus cuniculus with 9 samples.

Results

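Notch receptors, their ligands, a pair of their target genes and the endocytic regulator NUMBL were followed through 9 RNA libraries of rabbit urethral tissue. The 10 members were named by symbol (NOTCH1, NOTCH2, NOTCH3, NOTCH4, JAG1, JAG2, DLL4, HEYL, HES1 and NUMBL), and 9 of them were found among the 28788 gene rows of the deposited count table. No row carried the symbol NOTCH4, and that receptor was not analysed here. All 9 found members passed the filter on low counts that left 17102 genes, with between 281 counts (HEYL) and 14293 counts (NOTCH3) in a library.

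The series belongs to work on a hydrogel stent for urethral repair in the rabbit. Libraries are named by 1 of the codes S6, S7 or S9 and a number (S6_2), and each code has 3 of them. The labels give the organism, the tissue and polyadenylated RNA, but they do not say which treatment, time, strain or animal a code or number marks, so no code is taken as the control. Nothing says that the libraries of a code came from separate animals, and the errors below therefore measure the spread between libraries.

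Notch receptors sit in the membrane of the receiving cell, and Jagged and Delta-like ligands sit on its neighbour. When a ligand pulls on the receptor, a protease of the ADAM family and then gamma-secretase cut it, and the freed inner part joins RBPJ and Mastermind-like proteins in the nucleus to switch on HES and HEY repressors. In tissues such as the urethra the pathway is known for its work in blood vessels, where DLL4 and JAG1 on endothelium signal to NOTCH3 on smooth muscle cells and pericytes, and in stratified epithelium, where NOTCH1 and the Jagged ligands take part in leaving the basal layer.

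In bulk tissue, fewer cells of a type and less RNA per cell cannot be told apart. Total counts lay between 35127085 and 36832773 per library. Marker genes of smooth muscle (10 of 10 found), pericytes (8 of 8), endothelium (12 of 12) and basal epithelium (9 of 10) had counts in each library, while the uroplakins UPK1A, UPK3A and UPK3B were at 0 in some. In S6_4, S7_3 and S9_4 0.243% to 0.419% of counts fell on mitochondrially encoded genes, against 0.91% to 1.52% in the other 6 libraries. The gap was far wider for the mitochondrial gene ATP6, at 25.9, 22.3 and 21.5 CPM against 1946 to 3258 CPM. The members were selected on expression values of these same 9 libraries, with the fold changes between codes in view, and all 3 contrasts count as used. Their own differences between codes are therefore given as description, with no p-value. Calls of members are counted further on, but they rest on the values used for the choice and serve as no support.

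NOTCH3, the receptor of vascular smooth muscle and pericytes, was the only receptor whose 3 codes did not overlap. In library-scaled read counts (CPM, TMM-scaled) it stood at 174, 107 and 166 in S6_2, S6_3 and S6_4, at 298, 263 and 279.7 in S7_2, S7_3 and S7_4, and at 378, 354 and 337 in S9_1, S9_2 and S9_4. The groups did not overlap, with S6 lowest, S7 between and S9 highest. The log2 fold change was 1.26 (SE 0.19, n = 3 per group) for S9 against S6, 0.91 (SE 0.19) for S7 against S6 and 0.35 (SE 0.19) for S9 against S7.

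NOTCH1, a receptor of endothelium and stratified epithelium, was at 45.7, 30.9 and 36.8 CPM in the S6 libraries. It was at 83.5, 48.4 and 50.6 CPM in S7 and at 94.2, 74.2 and 70.9 CPM in S9. All S7 and S9 libraries lay above all of S6, but S7_2 stood far from the other S7 libraries and within the range of S9. The log2 fold change was 1.08 (SE 0.25) for S9 against S6 and 0.69 (SE 0.24) for S7 against S6, and the last was 0.39 without S7_2.

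NOTCH2, which is widely expressed, differed least of the receptors. Its levels were 125, 81.5 and 113 CPM in S6, 132, 114 and 112 CPM in S7 and 126, 113 and 149 CPM in S9. The groups overlapped in each comparison, and the log2 fold change of S9 against S6 was 0.28 (SE 0.18). NOTCH2 has the longest gene model of the members, 11411 bases, and with a correction for gene length that value was -0.03.

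Per length, on the deposited FPKM scale, NOTCH3 made up 52.4% ± 2.20 (SD, n = 3) of the sum of NOTCH1, NOTCH2 and NOTCH3 in S6, 61.3% ± 3.58 in S7 and 62.4% ± 1.82 in S9. The share of NOTCH2 was 26.7% ± 0.393, 18.5% ± 0.768 and 16.1% ± 2.62, and that of NOTCH1 was 20.9% ± 1.87, 20.2% ± 4 and 21.6% ± 2.03. Since both genes are read in the same library, the ratio of NOTCH3 to NOTCH2 FPKM does not depend on how libraries are scaled. It was 1.96, 1.85 and 2.06 in S6, 3.18, 3.23 and 3.51 in S7 and 4.24, 4.41 and 3.19 in S9, so that S6 lay apart from both other codes.

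**Figure D1:**
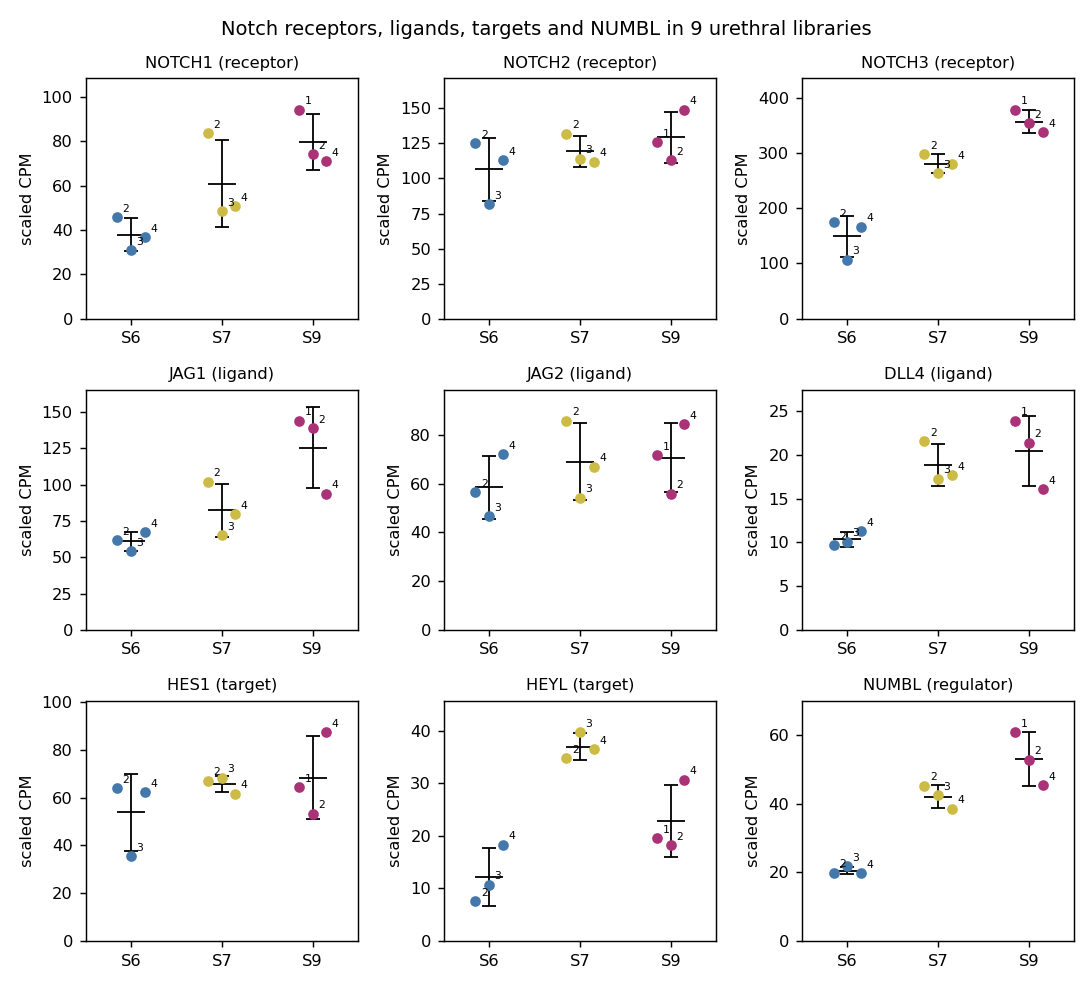
Scaled CPM of the 9 members by code (points: single libraries with their number; bars: mean ± SD, n = 3; each vertical axis starts at 0). NOTCH3 runs from 107 CPM in S6_3 to 378 CPM in S9_1 with no overlap between codes, while HEYL is highest in the 3 S7 libraries, at 34.8 to 39.8 CPM.

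Among the ligands, JAG1 and DLL4 were higher in S9 than in S6 in each library, and JAG2 was not. JAG1, a ligand of endothelium, smooth muscle and basal epithelium, was at 61.6, 54.2 and 67.2 CPM in S6, at 102, 65.2 and 79.5 CPM in S7 and at 144, 139 and 93.8 CPM in S9. The S7 range overlapped those of both S6 and S9. On the log2 scale JAG1 differed by 1.04 (SE 0.22) for S9 against S6, 0.43 (SE 0.22) for S7 against S6 and 0.61 (SE 0.22) for S9 against S7.

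DLL4, the ligand of arterial and sprouting endothelium, had the lowest FPKM of the 3 ligands in each code. Its levels were 9.67, 10.1 and 11.3 CPM in S6, 21.6, 17.3 and 17.7 CPM in S7 and 23.9, 21.4 and 16.1 CPM in S9. All S7 and S9 libraries lay above S6 and overlapped each other. In log2 terms the difference was 0.98 (SE 0.20) for S9 against S6, 0.86 (SE 0.20) for S7 against S6 and 0.12 (SE 0.19) for S9 against S7.

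JAG2, a ligand of stratified epithelium, gave 56.6, 46.7 and 72.2 CPM in S6, 85.8, 54.3 and 67.0 CPM in S7 and 71.8, 55.9 and 84.4 CPM in S9. The groups overlapped throughout, with a log2 fold change of 0.27 (SE 0.23) for S9 against S6. The ratio of JAG1 to JAG2 FPKM was 0.933, 0.996 and 0.798 in S6 and 1.03, 1.03 and 1.02 in S7. In S9 it was 1.73 and 2.14 in S9_1 and S9_2 but 0.954 in S9_4, so that the higher mean of S9 came from 2 of its 3 libraries.

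The 2 target genes differed in pattern from NOTCH3. HES1, a repressor switched on by Notch in many cell types, was at 64.0, 35.4 and 62.3 CPM in S6, at 67.1, 68.3 and 61.7 CPM in S7 and at 64.5, 53.3 and 87.5 CPM in S9. The groups overlapped, with S6_3 the lowest and S9_4 the highest library, and the log2 fold change of S9 against S6 was 0.34 (SE 0.25). Relative to NOTCH3, HES1 stood at 36.8%, 33.1% and 37.6% of its CPM in S6, at 22.5%, 26% and 22.1% in S7 and at 17.1%, 15.1% and 26% in S9. S6 lay above both other codes in this ratio.

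HEYL, a target that NOTCH3 is known to drive in mural cells, had its highest level in S7. It was at 7.61, 10.7 and 18.3 CPM in S6, at 34.8, 39.8 and 36.5 CPM in S7 and at 19.6, 18.2 and 30.7 CPM in S9. All S7 libraries lay above all libraries of S6 and S9, whereas S9 and S6 overlapped at S9_2 and S6_4. The log2 fold change was 1.60 (SE 0.33) for S7 against S6, 0.90 (SE 0.32) for S9 against S6 and -0.70 (SE 0.32) for S9 against S7. Of all 17102 genes 0.865% had each S7 library above those of both other codes.

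HEYL also varied with the mitochondrial split. S6_4 and S9_4, with few mitochondrial counts, held the highest HEYL of their codes, and so did S7_3. In the other 6 libraries the log2 fold change was 1.96 for S7 against S6, 1.04 for S9 against S6 and -0.92 for S9 against S7. The ratio of HEYL to NOTCH3 CPM was 4.38%, 10.1% and 11.1% in S6, 11.7%, 15.2% and 13.0% in S7 and 5.17%, 5.15% and 9.11% in S9. S7 lay above both codes in that ratio as well, and the part of the mitochondrial split in it was not tested.

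NUMBL, a relative of the endocytic adaptor NUMB, which lowers Notch at the membrane, was at 19.9, 21.8 and 19.8 CPM in S6, at 45.2, 42.5 and 38.6 CPM in S7 and at 60.9, 52.8 and 45.4 CPM in S9. The groups did not overlap, although S9_4 lay just above S7_2. The log2 fold change was 1.37 (SE 0.15) for S9 against S6, 1.04 (SE 0.14) for S7 against S6 and 0.33 (SE 0.14) for S9 against S7. NUMB itself had means of 91.1, 81.5 and 88.4 CPM in S6, S7 and S9, and the ratio of NUMBL to NUMB FPKM was 0.273, 0.466 and 0.288 in S6, 0.832, 0.738 and 0.676 in S7 and 0.982, 0.875 and 0.748 in S9.

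**Figure D2:**
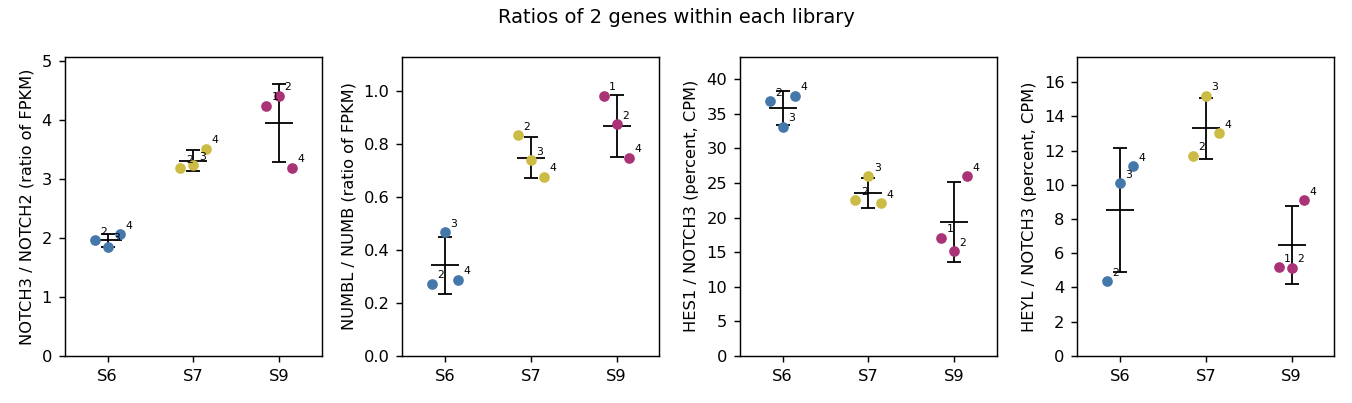
Ratios of a pair of genes within each library (points: libraries with their number; bars: mean ± SD, n = 3; axes start at 0). NOTCH3 over NOTCH2 is 1.85 to 2.06 in S6 and at least 3.18 elsewhere, and HEYL over NOTCH3 is highest in S7, at 11.7% to 15.2%.

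Compared per length, HES1 and NOTCH3 were the most abundant members and DLL4 and HEYL the least. In S6 the mean FPKM ran from HES1 (32.3 ± 10.7) through NOTCH3 (18.3 ± 5.15), JAG2 (15.7 ± 4.06), JAG1 (14.0 ± 2.09), NOTCH2 (9.30 ± 2.28), NOTCH1 (7.20 ± 1.64), NUMBL (6.26 ± 0.0642) and DLL4 (3.02 ± 0.333) to HEYL (2.92 ± 1.39). Of these neighbours only JAG1 and NOTCH2, and NUMBL and DLL4, did not overlap in range. In S9 the order began with NOTCH3 (45.3 ± 2.85) and HES1 (42.4 ± 11.9), which overlapped, and HEYL (5.65 ± 1.83) was again last, overlapping DLL4 (6.16 ± 1.16). In S7 HEYL (8.67 ± 0.341) lay above DLL4 (5.42 ± 0.790) in each library. These orders rest on the gene lengths behind the deposited FPKM, such as 5221 bases for NOTCH1 and 1669 bases for HES1.

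**Figure D3:**
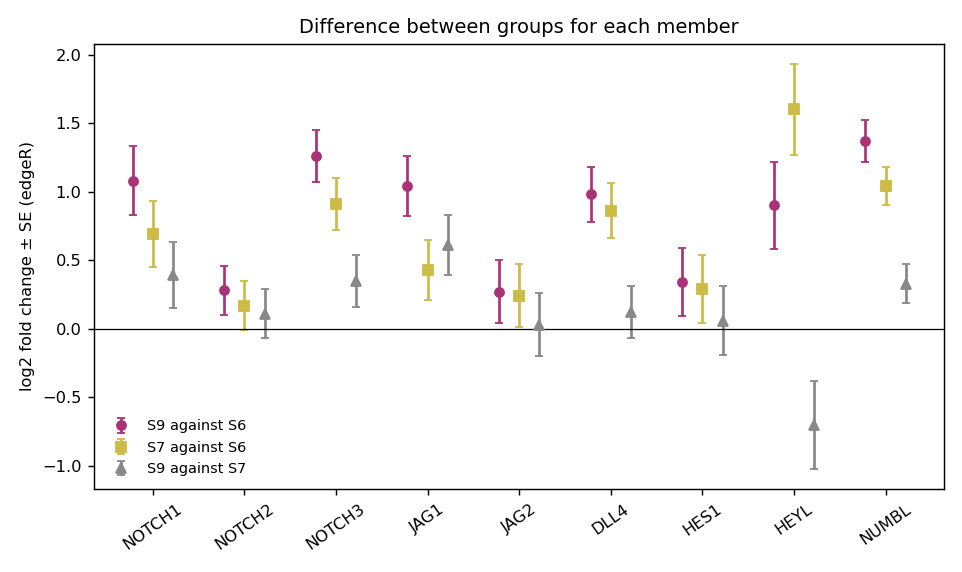
Log2 fold change of each member in the 3 comparisons, with the standard error of edgeR's fit. Values for S9 against S6 lie between 0.27 (JAG2) and 1.37 (NUMBL), and HEYL alone is negative for S9 against S7, at -0.70.

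Across the members, the log2 fold change of S9 against S6 was positive for 9 of 9, with a median of 0.98 against -0.01 for all genes tested, and a positive value was found in 49.3% of all genes. By edgeR's quasi-likelihood test with Benjamini-Hochberg adjustment over all 17102 genes, 5 members (NOTCH1, NOTCH3, JAG1, DLL4 and NUMBL) passed an adjusted p of 0.05, all higher in S9, where 12.4% of all genes passed and 6.02% passed as higher. DESeq2 called these 5 and HEYL (24% of all genes), and limma-voom called these 5 (23.7%). Libraries did not overlap for the same 5 members, against 18.6% of all genes with S9 above S6. For S7 against S6 the median was 0.69 (all genes -0.01), 9 of 9 were positive (48.9% of all genes) and 1 member passed (NUMBL), where 0.111% of all genes passed and 0.0468% passed as higher. DESeq2 called 4 members there (NOTCH3, DLL4, HEYL and NUMBL, with 8.29% of all genes) and limma-voom 3 (NOTCH3, HEYL and NUMBL, with 1.79%). 5 members (NOTCH1, NOTCH3, DLL4, HEYL and NUMBL) had each S7 library above S6, against 10.7% of all genes, and 4 of them had S9 above S6 as well, against 7.63%. For S9 against S7 the median was 0.12 (all genes 0.00) and 8 of 9 were positive (50.1% of all genes). NOTCH3 and NUMBL had each S9 library above S7 (8.36% of all genes), and HEYL had each below (8.81%). There edgeR called 0% of all genes and no member, with 2 members (JAG1 and NUMBL) and 1575 genes (9.21%) at an unadjusted p below 0.05, while DESeq2 called 123 genes and limma-voom 0, neither including a member. Nothing is read from these counts, since the members were chosen with such results known. Each code enters 2 of these 3 comparisons, so none of them is independent of the others.

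The calls for S9 against S6 depended on single libraries and on the model, as did those of all genes. Of the 5 members 3 passed without S6_3 (5.85% of all genes), 1 without S6_4 (0.508%) and none without S9_1 or S9_2 (0% and 0.0228%) or in the 6 libraries richer in mitochondrial counts (0.0406%). Over the 22 alternative settings the log2 fold change lay between 1.02 and 1.39 for NOTCH3, 0.83 and 1.24 for NOTCH1, 0.79 and 1.29 for JAG1, 0.80 and 1.19 for DLL4 and 1.27 and 1.49 for NUMBL. In the 6 libraries it was 1.38, 1.14, 1.29, 1.19 and 1.45 for the same genes. The call of NUMBL for S7 against S6 lay at the threshold. It was lost without any 1 of the 9 libraries, with no filter on low counts, in the 2 groups alone, in the 6 libraries and with a term for the mitochondrial class, although its log2 fold change was positive in all 22 settings and at least 0.91.

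Among 56 other genes of the pathway, listed by role, 50 had a row and 49 were tested. For S9 against S6, 4 were called higher and 2 lower by edgeR (6.02% and 6.34% of all genes), with a list median of 0.17 against -0.01 for all genes and 17 at an unadjusted p below 0.05 (31.2% of all genes). For S7 against S6 edgeR called 0 of 49 (0.111% of all genes), with 10 at an unadjusted p below 0.05 (17.1%). DESeq2 called 4 there (8.29% of all genes) and limma-voom 2 (1.79%). For S9 against S7 edgeR, DESeq2 and limma-voom each called 0 (0%, 0.719% and 0% of all genes). By edgeR 4 had an unadjusted p below 0.05 there (9.21% of all genes).

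Among the genes that act in the sending cell, NEURL1B and MIB1 were called higher in S9 than in S6. Both encode ubiquitin ligases that help ligands to be internalised. NEURL1B was at 51.8, 40.0 and 44.9 CPM in S6, at 107, 70.1 and 76.5 CPM in S7 and at 115, 113 and 108 CPM in S9, with no overlap between codes (log2 fold change of S9 over S6 1.30, SE 0.18, adjusted p = 0.0132 by edgeR). MIB1 was at 54.1, 37.2 and 38.4 CPM in S6 and at 79.2, 65.7 and 59.2 CPM in S9 (log2 fold change 0.65, SE 0.18, adjusted p = 0.0491 by edgeR), and S7, at 47.9 to 56.8 CPM, overlapped S6. The MIB1 call lay at the threshold and was lost in 14 of 22 settings. With the length correction its log2 fold change was 0.35 (edgeR adjusted p = 0.133). The paralogs NEURL1 (log2 fold change -0.18, SE 0.30, adjusted p = 0.729 by edgeR) and MIB2 (0.22, SE 0.18, adjusted p = 0.448 by edgeR) were not called. Both overlapped between S9 and S6.

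The ligand-like gene DLK2 was also called higher in S9. It was at 6.88, 4.03 and 4.07 CPM in S6, at 10.7, 3.59 and 5.99 CPM in S7 and at 21.1, 12.4 and 16.4 CPM in S9 (log2 fold change of S9 over S6 1.74, SE 0.43, adjusted p = 0.0361 by edgeR), so that S9 lay apart from both codes. The ligand DLL1 was at 20.2, 14.2 and 26.5 CPM in S6 and 46.7, 37.1 and 24.5 CPM in S9, which overlapped (log2 fold change 0.83, SE 0.32, adjusted p = 0.119 by edgeR). DLL3 was below the filter, with at most 12 counts in a library, and DLK1 had at most 39 counts.

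The genes that cut the receptor lay the other way. For S9 against S6 the log2 fold change was negative for 9 of 9, with a median of -0.33 and the value nearest to 0 at -0.25 (ADAM10), where 50.7% of all genes were negative. Only APH1B, a subunit of gamma-secretase, was called, at 36.5, 33.7 and 33.8 CPM in S6, 25.4, 27.2 and 29.1 CPM in S7 and 19.8, 22.3 and 21.3 CPM in S9, with no overlap between codes (log2 fold change of S9 over S6 -0.72, SE 0.13, adjusted p = 0.0196 by edgeR). Its paralog APH1A was at 209 ± 28.9 CPM in S6 and 148 ± 22.3 CPM in S9 and was not called (log2 fold change -0.50, SE 0.16, adjusted p = 0.0718 by edgeR). S9 libraries lay below all of S6 for 6 of the 9 genes, against 17% of all genes, and 6.34% of all genes were called lower. The log2 fold change of S7 against S6 was negative for 9 of 9 (51.1% of all genes, median -0.22) and that of S9 against S7 for 8 of 9 (49.9%, median -0.16). For S9 against S6, 8 of 9 were negative with the length correction (median -0.31) and 9 of 9 in each other setting, whereas for S7 against S6 the alternatives gave 8 or 9 and for S9 against S7 they gave 6 to 9.

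In the nucleus, RBPJ, the DNA-binding partner of the receptors, was at 54.8, 93.6 and 43.1 CPM in S6 and 74.0, 63.3 and 53.7 CPM in S9 (log2 fold change 0.00, SE 0.27, adjusted p = 0.995 by edgeR). None of the 7 genes of the activating complex was called by edgeR for S9 against S6 (12.4% of all genes). None of them had an unadjusted p below 0.05 by edgeR (31.2% of all genes), while limma-voom called MAML2 (23.7%).

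DTX3L, a ubiquitin ligase of the Deltex family that is also induced by interferon, was called lower in S9. It was at 63.5, 60.5 and 46.5 CPM in S6, at 37.6, 30.6 and 43.5 CPM in S7 and at 28.7, 28.8 and 36.6 CPM in S9 (log2 fold change of S9 over S6 -0.86, SE 0.19, adjusted p = 0.0275 by edgeR). Of the 14 genes of endocytosis and ubiquitin transfer it was the only one called lower (6.34% of all genes), beside NEURL1B and MIB1 called higher (6.02%).

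The wider HES and HEY family showed no gene called by edgeR among 6 for S9 against S6 (12.4% of all genes). Of the 6, 2 had an unadjusted p below 0.05 by edgeR (31.2% of all genes). DESeq2 called 0 (24% of all genes) and limma-voom called HES6 (23.7%). HES6, a family member that counters HES1, was at 28.7, 31.5 and 31.2 CPM in S6 but at 9.71, 10.9 and 26.9 CPM in S9 (log2 fold change -0.94, SE 0.36, adjusted p = 0.115 by edgeR). Without S9_4, whose level was near that of S6, HES6 was called. HES7 and the Deltex gene DTX1, at log2 fold changes of 1.44 (SE 0.56, edgeR adjusted p = 0.116) and 0.98 (SE 0.48, edgeR adjusted p = 0.201), reached at most 89 and 225 counts in a library. The Notch target HEY1 was at 8.74 ± 3.62 CPM in S6 and 12.4 ± 2.03 CPM in S9, and NRARP, a feedback inhibitor, at 31.7 ± 8.77 and 40.6 ± 7.44 CPM, neither called.

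In the other 2 comparisons no pathway gene was called by edgeR. Besides the genes called for S9 against S6, the largest values for S7 against S6 were those of HES7 (log2 fold change 1.71, SE 0.56), DTX1 (1.11, SE 0.48) and DTX2 (-0.84, SE 0.49), with edgeR adjusted p-values of 0.176, 0.284 and 0.433. DTX2 was at 18.6 CPM in S7_2 and at 6.46 and 4.11 CPM in the other S7 libraries, and its log2 fold change was -1.72 without S7_2 and -0.47 without S7_4. For S9 against S7, again besides those genes and among genes of at least 1 CPM in a group, they were those of HES2 (0.89, SE 0.61), MAML2 (0.77, SE 0.32) and HES6 (-0.66, SE 0.36), with edgeR adjusted p-values of 0.631, 0.538 and 0.587. HES2 was at 81.4 CPM in S9_4 and at 22.2 and 26 CPM in the other S9 libraries.

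**Figure D4:**
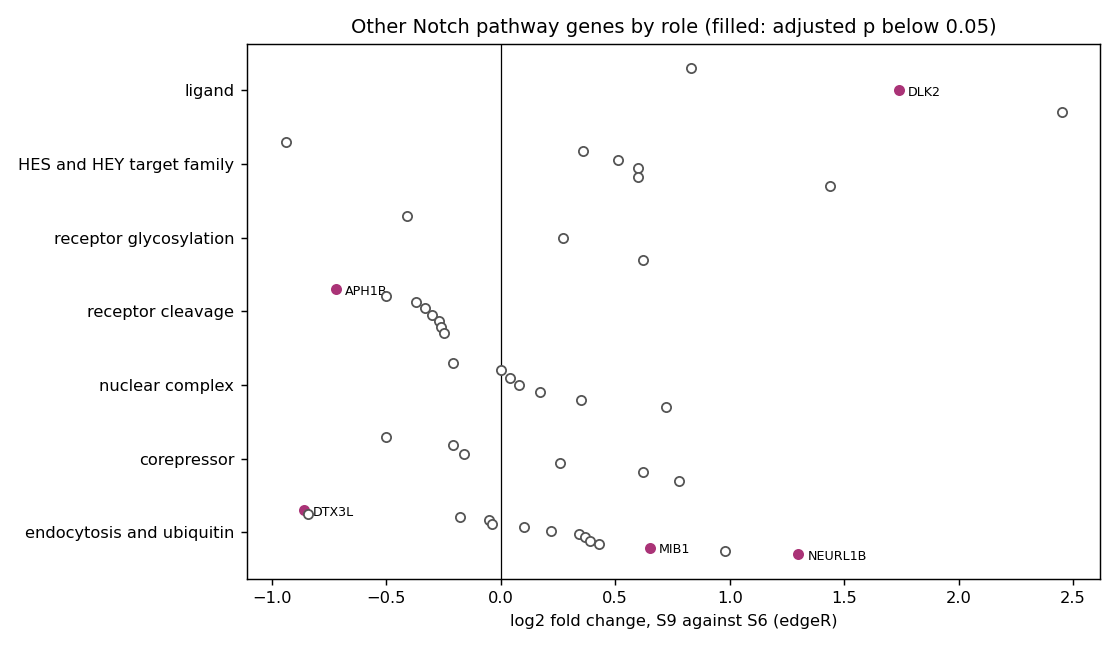
Log2 fold change of S9 against S6 for the other pathway genes reported here, by role (filled points: adjusted p below 0.05 by edgeR). Each gene of receptor cleavage shown lies at or below -0.25, and NEURL1B, at 1.30, has the largest value among the 14 genes of endocytosis and ubiquitin transfer.

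Without S6_4, S9_1 or S9_2, and in the 6 libraries richer in mitochondrial counts, none of the 6 passed, with edgeR adjusted p-values for NEURL1B of 0.0515, 0.0797, 0.0662 and 0.0645. Its log2 fold change there was 1.30, 1.29, 1.29 and 1.31. That of APH1B was -0.72, -0.66, -0.75 and -0.74, that of DLK2 1.62, 1.53, 1.91 and 1.62, that of MIB1 0.59, 0.54, 0.68 and 0.66, and that of DTX3L -0.97, -0.79, -0.80 and -1.11. DTX3L was also lost without S6_2 (edgeR adjusted p = 0.0504) or S6_3 (0.061), and DLK2 without S6_3 (0.0869), S7_4 (0.0565) or S9_4 (0.0578). MIB1 was lost without S6_3 (0.110), S7_2 (0.059), S7_3 (0.0613) or S7_4 (0.0724) as well.

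Cell type markers differed between the codes along with these genes. For S9 against S6 edgeR called 6.02% of all genes higher and 6.34% lower. Each S9 library lay below S6 for 17% of all genes, and 31.2% had an unadjusted p below 0.05 by edgeR. The 10 smooth muscle markers summed to 2163 to 3829 CPM in S6, 3570.1 to 11674 in S7 and 7046 to 13419 in S9, and 8 of them were called higher in S9 than in S6. The 8 pericyte markers summed to 437 to 624, 701 to 1289 and 918 to 1451 CPM with 2 called higher, but their median log2 fold change of S9 against S6 was only 0.30, and 2 of them had each S9 library below S6. The 12 endothelial markers summed to 1428 to 1709, 1150.1 to 2628 and 1318 to 2900.4 CPM with 3 called higher. The 9 basal epithelial markers summed to 1248 to 1443, 1629 to 2384 and 1887 to 2473 CPM, with 2 called higher and 1 lower in each S9 library than in S6 but not called. The 9 myeloid markers went the other way, at 8768 to 16401, 3033 to 6741 and 507 to 858 CPM with all 9 called lower in S9, and 7 of 8 lymphoid markers, which summed to 116 to 266, 45.6 to 70.8 and 35.7 to 44.9 CPM, were called lower. Fibroblast markers summed to 25961 to 43478, 43844 to 103945 and 37021 to 50938 CPM. Of these 8, 1 was called higher, and 1 was lower in each S9 library than in S6 but not called. Schwann cell markers summed to 45.5 to 176, 46.8 to 224 and 209 to 311 CPM (1 of 5 called higher). Suprabasal and urothelial markers summed to 1494 to 2403, 1775 to 2793 and 854 to 3129.9 CPM (0 of 7 called by edgeR, 3 at an unadjusted p below 0.05). The 2 skeletal muscle markers found summed to at most 14.2 CPM. For S7 against S6 edgeR called no marker of any of these cell types (0.111% of all genes). The part of these cell types in the Notch values was not tested.

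The members were also set against the summed markers of a cell type that is known to carry them. Per 1000 CPM of smooth muscle markers, NOTCH3 stood at 45.4, 46.9 and 76.6 CPM in S6, 25.5, 73.5 and 48.7 CPM in S7 and 37.4, 26.3 and 47.9 CPM in S9, which overlapped. Per 1000 CPM of pericyte markers it was at 279, 177 and 379 CPM in S6, 231, 374 and 285 CPM in S7 and 261, 277 and 367 CPM in S9, which overlapped too. DLL4 stood at 5.93 to 7.94 CPM per 1000 CPM of endothelial markers in S6 and 8.21 to 15 CPM in S7, while S9, at 7.39 to 12.2 CPM, overlapped both. JAG2 per 1000 CPM of basal epithelial markers was lower in each S9 library (29.6 to 34.1 CPM) than in S6 (37.4 to 51.5 CPM). S7, at 22.8 to 42.7 CPM, overlapped both. JAG2 itself overlapped between the codes, while the basal sums were 1248 to 1443 CPM in S6 and 1887 to 2473 CPM in S9. NOTCH1 per 1000 CPM of basal markers overlapped between S6 (24.7 to 31.7 CPM) and S9 (28.7 to 43.2 CPM). Per 1000 CPM of endothelial markers it overlapped too (18.1 to 31.3 and 25.6 to 53.8 CPM). HEYL per 1000 CPM of pericyte markers overlapped between all codes, at 12.2 to 42.0 CPM in S6, 27.0 to 56.8 CPM in S7 and 13.5 to 33.5 CPM in S9. These sums weigh the most abundant markers most, such as MYH11 for smooth muscle and RGS5 for pericytes.

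**Figure D5:**
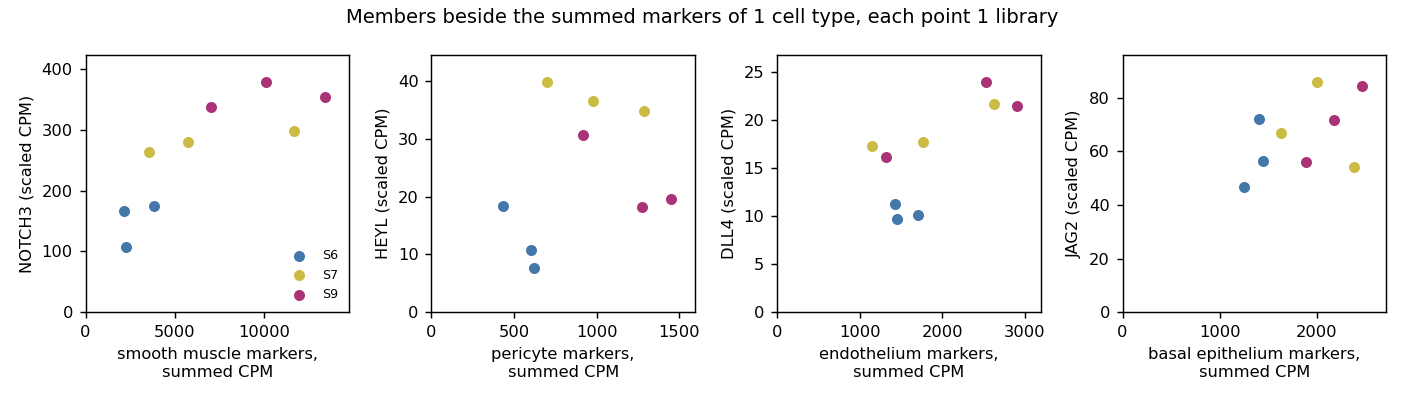
Scaled CPM of 4 members against the summed CPM of the markers of 1 cell type, each point 1 library, coloured by code (axes start at 0). NOTCH3 is lowest in the 3 S6 libraries, whose smooth muscle sums of 2163 to 3829 CPM overlap those of S7, and the S7 libraries have the highest HEYL at pericyte sums of 701 to 1289 CPM.

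The genes whose profile over the 9 libraries came closest to each member were found by the root mean square difference of centred log2 CPM among 10688 genes with a symbol. FAT1, an atypical cadherin, was closest to NOTCH3 at 0.091, followed by DNAL1 at 0.12, against a spread of NOTCH3 itself of 0.58. NOTCH1 was closest to EPN2, an endocytic adaptor, at 0.088, JAG1 to PAM and PPP1R9A at 0.085, DLL4 to the transcription factor TBX2 at 0.085 and NUMBL to MORC4 at 0.13 and the transcription factor ZEB1 at 0.14. HEYL had no near neighbour, since INHBB and the endothelial receptor KDR were closest at 0.39 against its own spread of 0.78. NOTCH2 was closest to BRD1 (0.056), HES1 to TRIM2 (0.11) and JAG2 to WDCP (0.087), which varied little. Among the members, NOTCH1 and JAG1 were nearest to each other (0.21), as were DLL4 and NUMBL (0.19) and NOTCH2 and HES1 (0.14). These distances describe the 9 libraries, and the profiles share the same codes and scaling.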

How the data were processed

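The authors deposited raw read counts for each gene. Per the submitters' processing notes, fastp, HISAT2 and HTSeq were used, and their versions, the genome build, annotation and strand setting were not stated, so overlapping or antisense genes cannot be told apart and no coordinates or sequences were used. The authors also deposited FPKM, from which gene lengths were taken. Columns were mapped to samples by title.

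Genes were kept by filterByExpr (minimum count 10, minimum total 15). Counts were scaled by TMM and compared with glmQLFit and glmQLFTest of edgeR 4.0.16 (robust, R 4.3.3) in 1 model of 3 groups. The code was run on simulated counts with less spread between libraries than these data, where edgeR's common coefficient of variation was 41.9%. That run therefore checks the code and does not give the error rates for these libraries. Adjustment was by Benjamini-Hochberg over all genes, with a threshold of 0.05. Standard errors were derived from the F statistic. FPKM was tested by limma 3.58.1 on log2(FPKM + 1) and log2(FPKM + 0.1), which understates changes of low genes. Other alternatives were other scalings and filters, DESeq2 1.42.0, limma-voom, a replicate block, the 2 groups alone, a length correction, the mitochondrial class and each library left out.

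The members, lists and alternatives were chosen with earlier results of these data known. Named genes were the 9 members found, pathway genes called in any comparison (some are not reported here), the 3 largest uncalled differences per comparison with at least 1 CPM in a group, and the genes nearest to each member with at least 5 CPM. DLL1, DLL3, DLK1, APH1A, ADAM10, RBPJ, HEY1, NRARP, NUMB, NEURL1 and MIB2 were named after their values were seen. Symbols absent from the table were looked up in RefSeq's mOryCun1.1 gene list by gene ID. For the members, with at least 281 counts in a library, precision is limited by the spread between libraries more than by counting. For low genes such as HES7, with 12 to 89 counts, counting limits it as well.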

Additional observations from a re-analysis of the deposited data

How the results depend on the processing

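For S9 against S6, where edgeR called 2115 genes and 6 of the other pathway genes, DESeq2 called 4112 and 10, limma-voom 4061 and 15, and the 6 libraries with high mitochondrial counts gave 7 and 0. Leaving out 1 library gave 0 to 2076 genes, 0 to 6 pathway genes and a median over the members of 0.93 to 1.14. For S7 against S6, with 19 and 0, DESeq2 called 1417 and 4, limma-voom 306 and 2, log2(FPKM + 1) 52 genes, log2(FPKM + 0.1) 37, the term for the mitochondrial class 4, and the 2 groups alone and the 6 libraries 0. Leaving out 1 library gave 0 to 10 genes, and a median of 0.39 to 0.84. For S9 against S7, with 0 genes, DESeq2 called 123 and the 6 libraries 1, and leaving out 1 library gave 0 to 1 and a median of 0.09 to 0.28. Smaller sets of libraries leave fewer degrees of freedom, and otherwise the cause was not tested.

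With the replicate block, S9 against S6 gave 16 genes, 0 pathway genes and a median over the members of 0.80, and S7 against S6 gave 1 gene. None of the 5 members called for S9 against S6 (0.0936% of all genes), nor NUMBL for S7 against S6, passed with that block. No other library shares the number of S9_1, so the block fits S9_1 exactly and takes it out of the comparison. Leaving out S9_1 without a block also gave 0 genes for S9 against S6. The block leaves fewer degrees of freedom as well, so a pairing and these losses cannot be told apart here. Deviations of same-numbered libraries correlated at -0.0649 to 0.138, with 3 of 7 pairs over 0.1 against 1 of 20 pairs with different numbers. Of the 9 libraries 6 correlated best with their own number, and S9_1, the only library with its number, could not. The main fit took the numbers as no pairing, since the labels do not give one, and whether they mark one is not known. HES2 for S9 against S7 turned to -0.15 in the 6 libraries, and DLK2 for S7 against S6, not called, to -0.06 without S7_2, with 0.75 without S7_3 at the other end. Members with values near 0 also changed sign, among them NOTCH2 with the length correction (-0.03 for S9 against S6).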
